A study of Mus musculus with 8 samples.

Results

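The cytotoxic genes described here are Cd8a, Cd8b1, Gzma, Gzmb, Gzmk, Prf1, Nkg7, Ncr1, Klrb1c and Eomes, which are 10 of the 54532 genes in the deposited count table. They were taken by gene name as genes that cytotoxic T cells and natural killer (NK) cells use or carry. Of the 10, 9 had enough reads to be among the 17138 genes tested, and Gzmk did not. RNA was sequenced from whole lungs of CC-LR mice aged 14 weeks, 4 of them controls and 4 given TTI-101, a small-molecule inhibitor of STAT3, for 4 weeks from 10 weeks of age. All 8 mice carried the K-rasG12D allele behind a stop cassette together with Cre recombinase driven from the club cell secretory protein locus, on a C57BL/6 background, so that the mutant protein arises in the airway epithelium and lung tumors form. The labels give neither the sex of each mouse nor the route of the drug, and do not say whether the controls received vehicle. Each library came from 1 mouse. The question is whether the RNA of cytotoxic lymphocytes in these tumor-bearing lungs differed after treatment.

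Cytotoxic lymphocytes kill by releasing granules onto a target cell. Perforin opens the target's membrane and granzymes, a family of serine proteases, enter and start cell death. CD8 T cells find their targets through the T cell receptor with the CD8 coreceptor, whereas NK cells read a balance of activating and inhibitory receptors, and both cell types are known for surveillance of lung tumors. T-box factors such as Eomes and RUNX factors are known to take part in switching on perforin and granzyme genes.

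The sequences before the start sites of 3 members that held matches are shown, a granzyme, perforin and an NK receptor. Each is the stretch of 250 bases before the RefSeq start on GRCm38.p6, written 5′ to 3′ on the strand of the gene, with capitals marking matches on either strand to AGGTGT, the core of a T-box site, or to TGTGGT, a RUNX site (ACACCT and ACCACA on the reverse strand).
Gzma, chr13:113100982-113101231, minus strand: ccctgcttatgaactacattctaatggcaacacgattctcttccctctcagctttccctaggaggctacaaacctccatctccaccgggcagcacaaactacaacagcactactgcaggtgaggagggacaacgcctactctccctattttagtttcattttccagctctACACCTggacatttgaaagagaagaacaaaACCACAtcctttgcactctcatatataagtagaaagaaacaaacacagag
Prf1, chr10:61297586-61297835, plus strand: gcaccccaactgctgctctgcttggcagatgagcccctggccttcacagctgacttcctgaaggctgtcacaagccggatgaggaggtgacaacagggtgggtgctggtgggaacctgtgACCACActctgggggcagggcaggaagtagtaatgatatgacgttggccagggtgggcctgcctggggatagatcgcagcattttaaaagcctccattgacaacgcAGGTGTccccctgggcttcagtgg
Ncr1, chr7:4337465-4337714, plus strand: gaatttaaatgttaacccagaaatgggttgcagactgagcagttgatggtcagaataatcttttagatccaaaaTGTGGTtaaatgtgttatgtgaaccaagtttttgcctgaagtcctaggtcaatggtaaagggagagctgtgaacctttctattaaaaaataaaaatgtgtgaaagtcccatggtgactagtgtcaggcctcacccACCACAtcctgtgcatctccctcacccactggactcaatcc
The table of promoters held 9 of the 10 genes. The T-box letters were in 4 of the 9 (Gzma, Gzmk, Nkg7 and Prf1), against 11.8% of all 32851 promoters of that length, and the RUNX letters were in 6 of the 9 (Gzma, Gzmb, Klrb1c, Ncr1, Nkg7 and Prf1), against 14.0%. A STAT motif, TTCNNNGAA, which reads the same on both strands, was in 1 of the 9, Nkg7, against 7.02%. The windows of Cd8a and Eomes held none of the 3 motifs. Those of Gzmk and Klrb1c lie inside the genes as deposited, and the T-box match of Nkg7 lies past its deposited start. Of the 9 RefSeq starts, 6 were found near the start of a transcript of the gene. These matches describe letters in a window and were not tested as binding sites. Their part in the members' levels was not tested.

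Transcripts of the 10 genes were scarce in whole lung and differed widely between mice of the same group. Levels are given as CPM, counts set to a common library size, after scaling of the libraries by TMM. Summed over the 10 genes, control mice 1 to 4 were at 99.4, 59.7, 61.3 and 13.7 CPM, and TTI-101-treated mice 1 to 4 at 153.6, 50.3, 123.7 and 115.3 CPM. The groups overlapped: treated mouse 2 lay below 3 of the 4 controls, and control mouse 4 lay below every other mouse. Counting error was much smaller than these gaps, since the members' level before TMM scaling was 12.6 CPM in control mouse 4 (95% exact interval 10.99 to 14.4) and 60.7 CPM in control mouse 2 (95% exact interval 57.0 to 64.6). Such intervals cover counting error only. In bulk lung RNA, fewer cytotoxic cells and less RNA per cell cannot be told apart.

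Control mouse 4 stood apart in other ways. Its share of mitochondrial counts was 5.56%, against 2.01% to 2.85% in the other 7 libraries, while its total of 16948084 counts lay within the range over all libraries (16075855 to 26873509). The deepest library of each group, mouse 1 in both, also held the most member RNA of its group, and the part of depth in these levels was not tested. Lung identity was clear in every library, with 7 epithelial markers summing to between 35201 and 89124 CPM.

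**Figure D1:**
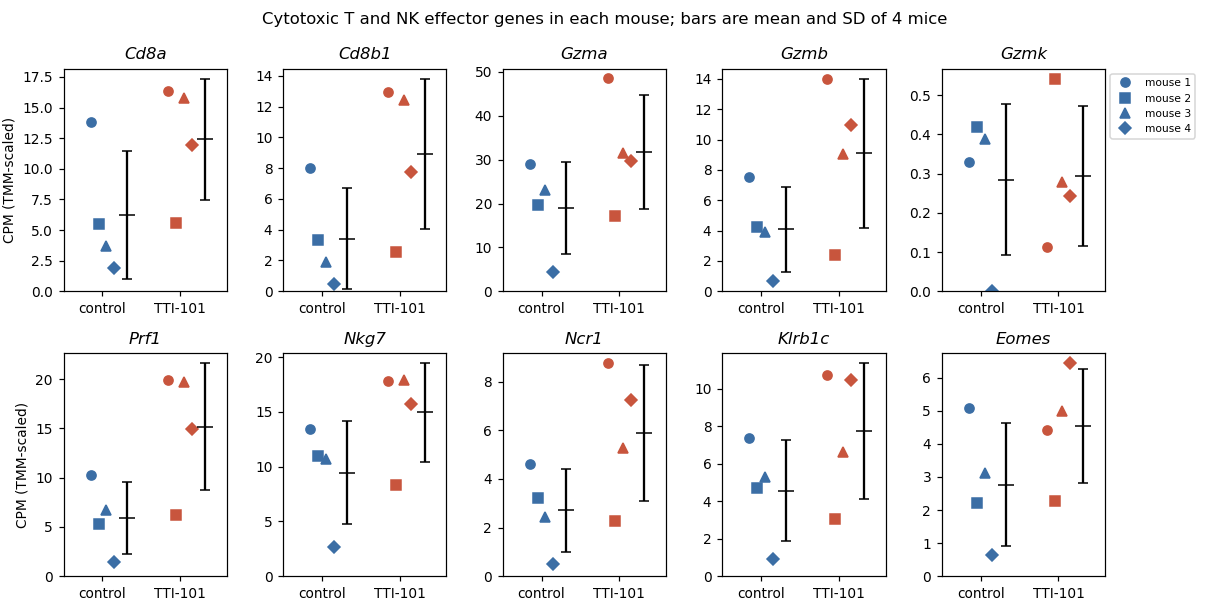
Level of each of the 10 genes in CPM (vertical axis, linear, from 0) in the 4 control (blue) and 4 TTI-101-treated mice (red), with the mean and SD of each group beside the points and the mouse number shown by the marker shape. Control mouse 4 is the lowest point in every panel, and treated mouse 2 is the lowest treated mouse in every panel except that of Gzmk.

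Perforin had the lowest p between groups among the members. Prf1 (ENSMUSG00000037202, chromosome 10, 61297833 to 61304680, plus strand) was at 10.3, 5.26, 6.71 and 1.47 CPM in control mice 1 to 4 and at 19.9, 6.18, 19.7 and 14.9 CPM in TTI-101-treated mice 1 to 4. Treated mice 1, 3 and 4 lay above all controls, and treated mouse 2 lay below control mice 1 and 3. The means were 5.93 ± 3.64 CPM for controls and 15.2 ± 6.42 CPM for treated mice (SD, n = 4 each), and the log2 fold change was 1.34 (SE 0.51, edgeR unadjusted p = 0.0246, adjusted p = 0.657). A two-sided exact permutation test of log2 CPM over the 70 ways of splitting the mice, which can go no lower than 0.0286, gave p = 0.0857 for Prf1. In DESeq2 the unadjusted p was 0.00436 and the adjusted p 0.685. The unadjusted edgeR p for Prf1 passed 0.05 without control mouse 1, 3 or 4 or without treated mouse 2 or 4, and missed it without control mouse 2 or treated mouse 1 or 3, the highest being 0.0655.

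Among the granzymes, Gzma was the most abundant member and Gzmk was near the floor of detection. Gzma (ENSMUSG00000023132, chromosome 13, 113093825 to 113100981, minus strand), a tryptase of cytotoxic granules, was at 28.9, 19.7, 23.2 and 4.41 CPM in controls and 48.6, 17.1, 31.6 and 29.6 CPM in treated mice. Treated mice 1, 3 and 4 were above all controls, whereas treated mouse 2 was below all controls but mouse 4. Gzma had a log2 fold change of 0.73 (SE 0.47, edgeR unadjusted p = 0.152, adjusted p = 0.669). Gzmb (ENSMUSG00000015437, chromosome 14, 56258838 to 56262260, minus strand), which cleaves caspases and other substrates after aspartate, was at 7.52, 4.24, 3.88 and 0.704 CPM in controls and at 14.0, 2.40, 9.06 and 10.9 CPM in treated mice. Its pattern over the mice was close to that of Gzma, with treated mouse 2 again below 3 controls. The log2 fold change of Gzmb was 1.14 (SE 0.62, edgeR unadjusted p = 0.0943, adjusted p = 0.657). Gzmk (ENSMUSG00000042385, chromosome 13, 113171608 to 113225908, minus strand), a granzyme known from memory CD8 T cells, had 9, 7, 7 and 0 counts in controls and 3, 9, 5 and 4 counts in treated mice. The 0 in control mouse 4 allows up to 0.177 CPM before TMM scaling when 3 counts are taken as the limit of a count of 0, and no difference between groups was detectable at this depth (log2 fold change 0.01, SE 0.95, edgeR fit without a filter, unadjusted p = 0.992). Gzmk also overlaps Esm1 on the opposite strand, which had 240 to 740 counts, and the sources used here do not say whether reads were counted by strand.

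Nkg7 (ENSMUSG00000004612, chromosome 7, 43437073 to 43438249, plus strand) encodes a granule membrane protein of cytotoxic T and NK cells. It was at 13.5, 10.999, 10.7 and 2.69 CPM in controls and at 17.8, 8.35, 17.96 and 15.8 CPM in treated mice. Its controls 1 to 3 lay close together and above treated mouse 2. The estimate for Nkg7, a log2 fold change of 0.66 (SE 0.42, edgeR unadjusted p = 0.149, adjusted p = 0.668), was the smallest among the 9 tested members.

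The CD8 coreceptor chains varied widely within the control group. Cd8a (ENSMUSG00000053977, chromosome 6, 71373427 to 71379173, plus strand), whose product also marks some dendritic cells as a homodimer, was at 13.8, 5.50, 3.72 and 1.92 CPM in controls and at 16.3, 5.58, 15.8 and 12.0 CPM in treated mice. Control mouse 1 thus reached the level of the treated mice, and treated mouse 2 was level with control mouse 2. Cd8a had a log2 fold change of 0.98 (SE 0.54, edgeR unadjusted p = 0.0979, adjusted p = 0.657). Cd8b1 (ENSMUSG00000053044, chromosome 6, 71322788 to 71337494, plus strand) encodes the beta chain, which is largely restricted to conventional CD8 T cells, and ends 35933 bases before Cd8a begins. It was at 7.998, 3.35, 1.89 and 0.448 CPM in controls and at 12.96, 2.52, 12.5 and 7.72 CPM in treated mice. The order of mice was close to that of Cd8a, except that treated mouse 2 lay below control mouse 2. Its log2 fold change of 1.36 was the largest point estimate and also the least precise of the 9 (SE 0.70, edgeR unadjusted p = 0.0811, adjusted p = 0.657), and control mouse 4 held only 7 counts of it.

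The receptors that identify NK cells gave similar differences without passing the test. Ncr1 (ENSMUSG00000062524, chromosome 7, 4337724 to 4345164, plus strand) encodes NKp46, an activating receptor of NK cells and some innate lymphoid cells. It was at 4.62, 3.23, 2.44 and 0.512 CPM in controls and at 8.74, 2.28, 5.28 and 7.24 CPM in treated mice. Treated mouse 2 was the only treated mouse within the control range. The log2 fold change of Ncr1 was 1.11 (SE 0.56, edgeR unadjusted p = 0.0763, adjusted p = 0.657). Klrb1c (ENSMUSG00000030325, chromosome 6, 128778485 to 128789215, minus strand), the NK1.1 antigen of C57BL/6 mice, was at 7.37, 4.72, 5.27 and 0.895 CPM in controls and at 10.7, 3.06, 6.62 and 10.5 CPM in treated mice. Here treated mouse 3 also lay within the control range. The log2 fold change of Klrb1c was 0.75 (SE 0.55, edgeR unadjusted p = 0.199, adjusted p = 0.694).

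Eomes (ENSMUSG00000032446, chromosome 9, 118478212 to 118486132, plus strand), the T-box factor of NK cells and memory CD8 T cells, was at 5.10, 2.21, 3.11 and 0.640 CPM in controls and at 4.41, 2.28, 5.003 and 6.45 CPM in treated mice. Only treated mouse 4 was above all controls. With a log2 fold change of 0.69 (SE 0.52, edgeR unadjusted p = 0.212, adjusted p = 0.702), Eomes had the highest p among the tested members.

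Counted together, 9 of the 9 tested members had a fitted log2 fold change above 0, where 50.6% of all tested genes did, and their median was 0.98, against 0.00 over all tested genes. Since the members varied together over the mice, their shared sign is not 9 separate observations. At an unadjusted edgeR p under 0.05, 1 of the 9 was higher (Prf1), against 3.02% of all tested genes, and 0 were lower, against 3.58%. After adjustment, edgeR called 0 members and 0% of the 17138 genes, of which 1132 had an unadjusted p under 0.05, while DESeq2 called 4 genes and no member. In 0 of the 9 members did every treated mouse lie above every control, against 1.53% of all tested genes. The count for the members turned on single mice, with 6 higher at an unadjusted edgeR p under 0.05 without control mouse 1 (all but Gzma, Nkg7 and Klrb1c), 5 without treated mouse 2 (Cd8a, Cd8b1, Gzmb, Prf1 and Ncr1), and 0 without control mouse 2 or treated mouse 1 or 3. Over all genes the share higher at that p moved with the same mice, from 3.02% to 7.15% without control mouse 1 and 6.63% without treated mouse 2, and it was 1.03% to 2.99% in the other 6 fits without 1 mouse. Every treated mouse lay above every control for 5 members once treated mouse 2 was left out, against 7.04% of the tested genes, and for 1 member once control mouse 1 was left out, against 5.44%. All 9 log2 fold changes stayed above 0 whichever mouse was left out, with the lowest values, 0.36 for Nkg7 to 1.04 for Prf1, all without control mouse 4. The median of the 9 was 0.69 without control mouse 4 and 1.51 without control mouse 1.

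**Figure D2:**
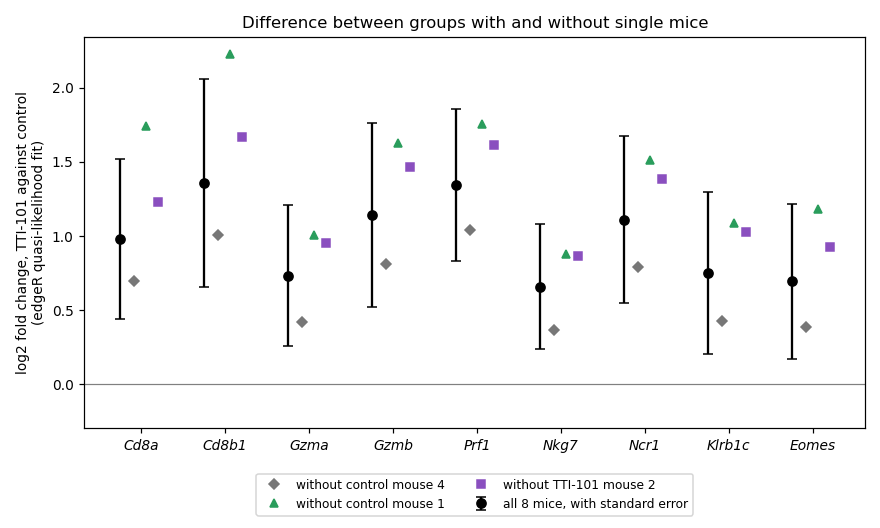
Log2 fold change of TTI-101-treated against control lungs (vertical axis) for the 9 tested members, from the edgeR fit to all 8 mice (black, with the standard error) and without control mouse 4 (grey), control mouse 1 (green) or TTI-101-treated mouse 2 (purple). For each gene the value without control mouse 4 is the lowest of those plotted and the value without control mouse 1 the highest, from 0.69 to 1.74 in Cd8a for example.

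The members varied together from mouse to mouse in both groups. Control mouse 4 was the lowest of all 8 mice for 9 of the 9 tested members, control mouse 1 the highest control for all 9, and treated mouse 2 the lowest treated mouse for all 9. Treated mouse 1 was the highest of all mice for 7 members, with treated mouse 3 the highest for Nkg7 and treated mouse 4 for Eomes. Over the 36 pairs of tested members, Pearson's r of log2 CPM across the 8 mice ranged from 0.87 (Cd8a with Klrb1c) to 0.99 (Gzmb with Ncr1), with a median of 0.96, and all 36 had a Benjamini-Hochberg adjusted p from an exact permutation test of between 0.000893 and 0.00449. Spearman's rho ranged from 0.67 (Cd8b1 with Eomes) to 1.00 (Gzmb with Ncr1), and 34 of the 36 pairs had an adjusted exact permutation p under 0.05. Without the 2 libraries farthest from the median of the first gene, r was 0.73 to 0.99 over the remaining 6. Deviations from the group means, which leave the treatment out, correlated at 0.84 to 0.99. All pairs share the same libraries, depth and scaling, so they are not independent. How many other gene pairs correlate as closely was not counted. Genes outside the members followed the members' mean z-score at r up to 0.996, so such closeness is not particular to the members.

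**Figure D3:**
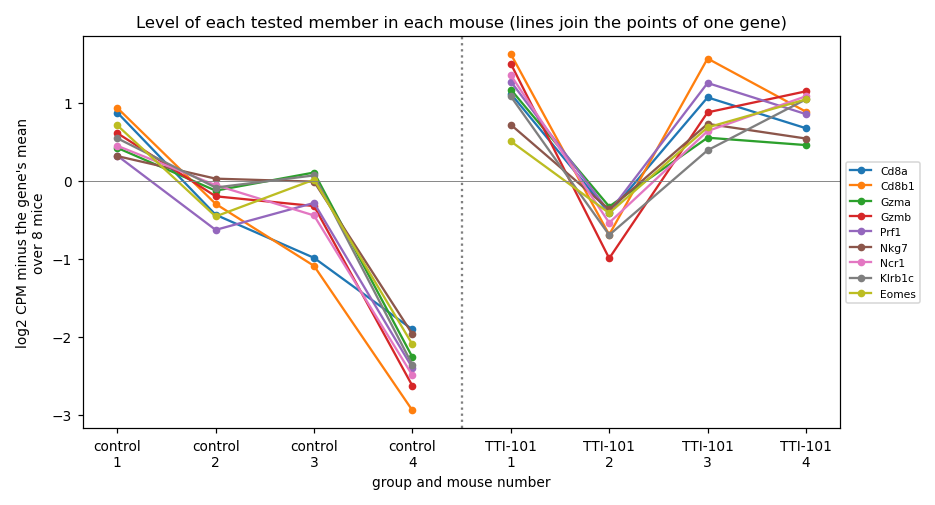
Log2 CPM of each of the 9 tested members minus that gene's mean over the 8 mice (vertical axis) for control mice 1 to 4 and TTI-101-treated mice 1 to 4 (horizontal axis), where the lines only join points of a gene and the mice have no order. All 9 genes are lowest in control mouse 4, and all drop at treated mouse 2 relative to the other treated mice.

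Per kilobase of gene length, on a linear scale over all 8 mice, Gzma led at 25.2 ± 12.8 CPM per kilobase (SD, n = 8), followed by Nkg7 at 13.4 ± 5.67. Each was above the next gene in 8 of 8 mice. Gzmb (4.59 ± 3.18), Cd8b1 (4.16 ± 3.26) and Prf1 (4.08 ± 2.68 CPM per kilobase) could not be ordered, since Gzmb exceeded Cd8b1 in 5 of 8 mice and Cd8b1 exceeded Prf1 in 4. Ncr1 (2.79 ± 1.78), Cd8a (2.56 ± 1.58) and Klrb1c (2.07 ± 1.15 CPM per kilobase) likewise changed places between mice. Eomes (0.878 ± 0.460) and Gzmk (0.208 ± 0.124 CPM per kilobase) were the lowest, with Klrb1c above Eomes and Eomes above Gzmk in 8 of 8 mice.

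To set the members beside all leukocyte RNA and all T cell RNA of the same lung, each was taken relative to Ptprc, which encodes CD45, and to Cd3e, a chain of the T cell receptor complex, as a difference of log2 CPM. Library scaling enters this difference only through the prior count of 2 that is added before logs are taken. Ptprc itself averaged 124 ± 57.7 CPM for controls and 180 ± 69.5 CPM for treated mice (SD, n = 4 each), with a log2 fold change of 0.53 (SE 0.36, edgeR unadjusted p = 0.165). Relative to Ptprc all 9 members had a higher mean in treated lungs, by a median of 0.69 on the log2 scale. Prf1 relative to Ptprc was at -4.32, -4.29, -4.06 and -5.52 in control mice 1 to 4 and at -3.46, -3.83, -3.05 and -4.03 in treated mice 1 to 4, so that every treated mouse lay above every control. The closest pair was control mouse 3 and treated mouse 4, and how many of all genes separate in this ratio was not counted. The difference was 0.95 (two-sided exact permutation p = 0.0286, the smallest possible), which gave 0.514 after adjustment over the 18 tests of 9 members against both references. Without control mouse 4 the difference was 0.63 and missed 0.05 (exact permutation p = 0.0571), as it did without any 1 of the 4 treated mice (0.77 to 1.0997, exact permutation p = 0.0571 each), while without control mouse 1, 2 or 3 the p stayed at 0.0286. No other member passed an exact p of 0.05 relative to Ptprc, Ncr1 being next with a difference of 0.73 (exact permutation p = 0.0857).

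Relative to Cd3e the picture was mixed, with 5 members higher and 4 lower in treated lungs and a median difference of 0.28. Cd3e itself averaged 5.78 ± 3.97 CPM for controls and 10.1 ± 3.95 CPM for treated mice (SD, n = 4 each, log2 fold change 0.80, SE 0.45, edgeR unadjusted p = 0.107). The largest differences relative to Cd3e were 0.75 for Cd8b1 and 0.55 for Prf1, and those for Gzma (-0.02), Klrb1c (-0.03), Eomes (-0.03) and Nkg7 (-0.13) were near 0, all within the spread between mice (lowest exact permutation p = 0.143). Signs of these last 4 changed when single mice were left out, as did those of Nkg7 and Klrb1c relative to Ptprc. In pairs of members, chosen for testing after their values were seen, 2 of 36 had an exact permutation p of 0.0286, Prf1 over Gzma (difference 0.57 in treated minus control) and Ncr1 over Klrb1c (0.36), and neither passed after adjustment over the 36 pairs (0.411).

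**Figure D4:**
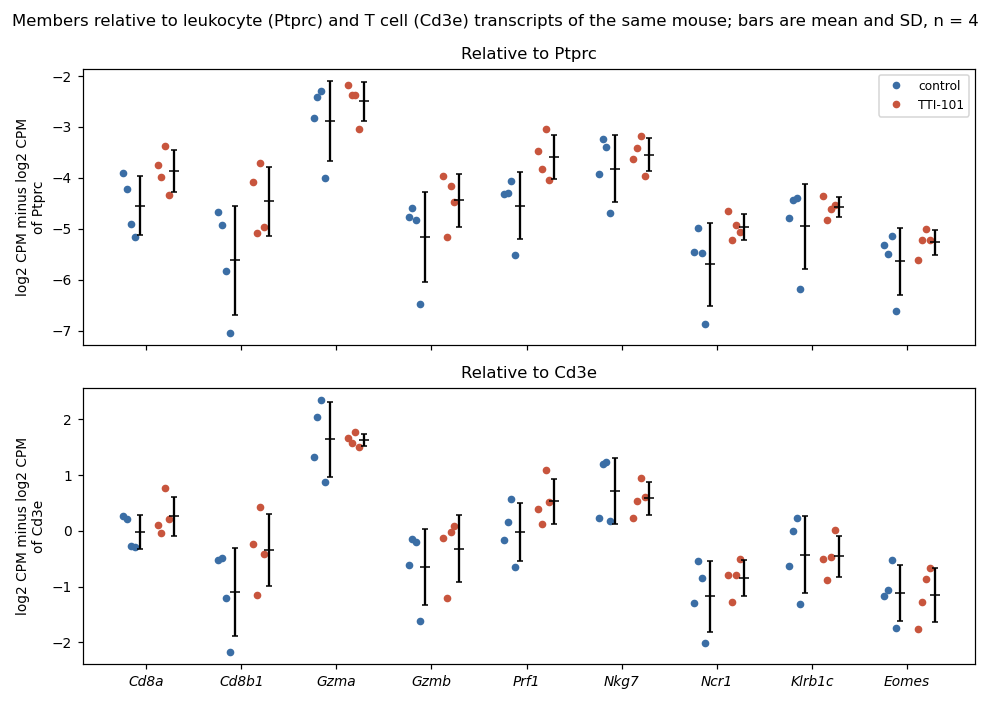
Log2 CPM of each tested member minus log2 CPM of Ptprc (upper panel) or Cd3e (lower panel) in each control (blue) and TTI-101-treated mouse (red), with group mean and SD (n = 4). Relative to Ptprc the groups do not overlap for Prf1. Its means differ by 0.95, while the closest pair is -4.06 in control mouse 3 and -4.03 in treated mouse 4. Relative to Cd3e the groups overlap for every gene.

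Other genes of the killing programme had smaller median differences than the members, described here by counts and medians without a test of the lists. The lists also hold genes abundant in whole lung, such as Lamp1 at 721 CPM in controls. Their medians may thus not reflect cytotoxic cells alone. Of 18 other granule and death ligand genes, 12 were tested, with a median log2 fold change of 0.37. Among them Unc13d, which primes granules for release, was higher (0.36, unadjusted p = 0.0363), and both Rab27a, which docks them (-0.55, unadjusted p = 0.0381), and Ctsc, which activates granzymes (-0.55, edgeR unadjusted p = 0.0473), were lower. These 3 genes are used by many other cells of the lung, Ctsc reaching 530 CPM in control lungs. None of the 3 passed without control mouse 4 (0.31 for Unc13d, -0.28 for Rab27a and -0.28 for Ctsc, edgeR unadjusted p 0.0747 to 0.17) and the list median was 0.21. Over the 8 fits without 1 mouse, Unc13d passed without control mouse 1 or 3 or treated mouse 1 or 2, Rab27a without control mouse 2 or 3 or treated mouse 2, and Ctsc without control mouse 2 or 3. Of the 12 tested genes, 8 had a log2 fold change above 0 and 4 below. Ctsw, named after its values were seen, was at 1.01 (SE 0.50, edgeR unadjusted p = 0.0691), close to the members' median of 0.98. Gzme (chromosome 14, 56117626 to 56120625, minus strand), a granzyme known from strongly activated cytotoxic cells, was too scarce to be tested in the edgeR fit and ran the other way. It had 18, 29, 3 and 43 counts in control mice 1 to 4 and 4, 0, 0 and 1 counts in treated mice 1 to 4, and it is described after its values were seen. As CPM these were 0.660, 1.73, 0.166 and 2.75 in controls and 0.151, 0, 0 and 0.0608 in treated mice, so that every control lay above every treated mouse, the closest pair resting on 3 and 4 counts. The share of all genes that separate in this direction was not counted. A two-sided exact permutation test of log2 CPM for Gzme gave p = 0.0286, the smallest possible, and DESeq2 an unadjusted p of 3.25e-05 and an adjusted p of 0.115. Gzme was highest in control mouse 4, which was lowest for all 9 tested members, and its cell source was not tested. Gzmc had 0 to 5 counts per library, and Gzmd, Gzmf, Gzmg and Gzmn had no counts in any library. Of 24 further NK receptor and adaptor genes, 23 were tested and 22 had a log2 fold change above 0, with a median of 0.47. Klrg1, an inhibitory receptor of mature effector cells, passed an unadjusted p of 0.05, averaging 1.16 ± 0.627 CPM for controls and 2.23 ± 0.156 CPM for treated mice (SD, n = 4 each, log2 fold change 0.91, edgeR unadjusted p = 0.0482), with 4 of 4 treated mice above all controls. Klrg1 passed in 1 of the 8 fits without 1 mouse, that without control mouse 1, and was at 0.76 without control mouse 4 (edgeR unadjusted p = 0.0937), where the list median was 0.33 and 0 of its genes passed. Klrk1, which encodes NKG2D, had a log2 fold change of 0.70 (SE 0.41, edgeR unadjusted p = 0.12). The Klra genes of this list are close copies of each other, and reads may be split between them.

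Of 10 other transcription factors of cytotoxic cells, Bhlhe40 was lower at an unadjusted p of 0.05 (-0.56, edgeR unadjusted p = 0.0323) and none was higher. Tbx21, which encodes T-bet, a T-box factor like Eomes, was at 1.04 (SE 0.57, edgeR unadjusted p = 0.0956), and the median was 0.40. Without control mouse 4 the calls turned round, with Tbx21 higher (0.68, edgeR unadjusted p = 0.0440) and Bhlhe40 at -0.30 (edgeR unadjusted p = 0.108). Bhlhe40 also missed 0.05 without treated mouse 1, 3 or 4, and Tbx21 passed it in no other fit without 1 mouse. Of 20 cytokine, chemokine and receptor genes linked to cytotoxic cells, but not all made by them, 19 were tested with a median of 0.15. S1pr5, which lets NK cells leave tissues and marrow, was higher (log2 fold change 1.29, edgeR unadjusted p = 0.0384), and Cxcl9, a chemokine for activated T cells, was lower (-1.999, edgeR unadjusted p = 0.0470), with 1 control at 10.5 CPM and a control mean of 3.43 CPM. Il2rb, a receptor chain for IL-2 and IL-15, was at 0.94 (SE 0.43, edgeR unadjusted p = 0.0541). Without control mouse 4, S1pr5 was at 0.99 and just missed 0.05 (edgeR unadjusted p = 0.0518), Cxcl9 was at -2.21 (edgeR unadjusted p = 0.0367) and the list median was 0.03. Of the 8 fits without 1 mouse, S1pr5 passed in those without control mouse 1 or 3 or treated mouse 2, and Cxcl9 in those without control mouse 2, 3 or 4. Without control mouse 1, Cxcl9 was at only -0.28 (edgeR unadjusted p = 0.659). Ifng, the effector cytokine of these cells, had only 2 to 18 counts per library and was not tested. No gene in these 4 lists had an adjusted p under 0.05.

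Marker genes of several other cell types also had higher values in treated lungs. All 10 T cell markers had a log2 fold change above 0 (median 0.62), of which Trac passed an unadjusted edgeR p of 0.05. Of the 5 CD4 T cell markers, 4 had a log2 fold change above 0 and 1 below (median 0.54). Cd4 was at 0.54 and Foxp3, the factor of regulatory T cells, at 1.28 (edgeR unadjusted p = 0.0187). Without control mouse 4, Trac was at 0.52 (edgeR unadjusted p = 0.0893), with 0 of the 10 T cell markers passing and a median of 0.46, and Foxp3 at 1.04 (edgeR unadjusted p = 0.0337). Trac passed without control mouse 1 or treated mouse 2 and in no other fit of this kind, and Foxp3 passed in 7 of the 8, all but that without treated mouse 2 (edgeR unadjusted p = 0.0529). All 6 B cell markers were higher at an unadjusted edgeR p under 0.05 (median 1.24), as were 4 of 5 red blood cell markers (median 2.503), whose sum was 58.0 to 264 CPM in controls and 205 to 1586 CPM in treated lungs, highest in treated mouse 1. All 6 B cell and all 5 red blood cell markers passed without control mouse 4, with medians of 1.04 and 3.12. The 5 pan leukocyte markers had a median of 0.41, with 0 at an unadjusted edgeR p under 0.05, and the 6 gamma delta T cell markers -0.11. All 5 neutrophil markers (median 0.83) and 5 of 6 macrophage markers (median 0.26) had a log2 fold change above 0, and 0 of either list passed an unadjusted edgeR p of 0.05. Mcpt8, which defines basophils and belongs to the granzyme family, had 0 to 8 counts per library, and Cpa3 of mast cells and basophils was at 1.01 (edgeR unadjusted p = 0.0638). Of the plasmacytoid and type 1 dendritic cell markers, which bear on Cd8a, 2 of 7 were lower at an unadjusted edgeR p under 0.05 (Xcr1 and Itgae), with a list median of 0.08. Xcr1 passed in 7 of the 8 fits without 1 mouse, all but that without control mouse 2, and Itgae without control mouse 2 or 3 or treated mouse 2, and without control mouse 4 they were at -0.78 (edgeR unadjusted p = 0.0248) and -0.46 (edgeR unadjusted p = 0.0748). The part of these cells in the members' values was not tested.

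Lung epithelial markers ran the other way. Their sum was 48498, 54536, 69454 and 89124 CPM in control mice 1 to 4 and 40510, 67875, 40607 and 35201 CPM in treated mice 1 to 4. It was highest in control mouse 4, the mouse with the least member RNA, and among treated mice it was highest in mouse 2, the treated mouse with the least. Over the list, 6 of 7 genes had a log2 fold change below 0 (median -0.52) and Epcam, Cdh1 and Scgb1a1 were lower at an unadjusted edgeR p under 0.05. Epcam passed without control mouse 1 or 2 or treated mouse 2, Cdh1 without any of control mice 1 to 3 or treated mouse 2, and Scgb1a1 without control mouse 1 or treated mouse 2. Without control mouse 4 the epithelial count was 0 of 7 and the median was -0.27, while the members' median was 0.69. The part of epithelial RNA share in the members' levels was not tested.

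**Figure D5:**
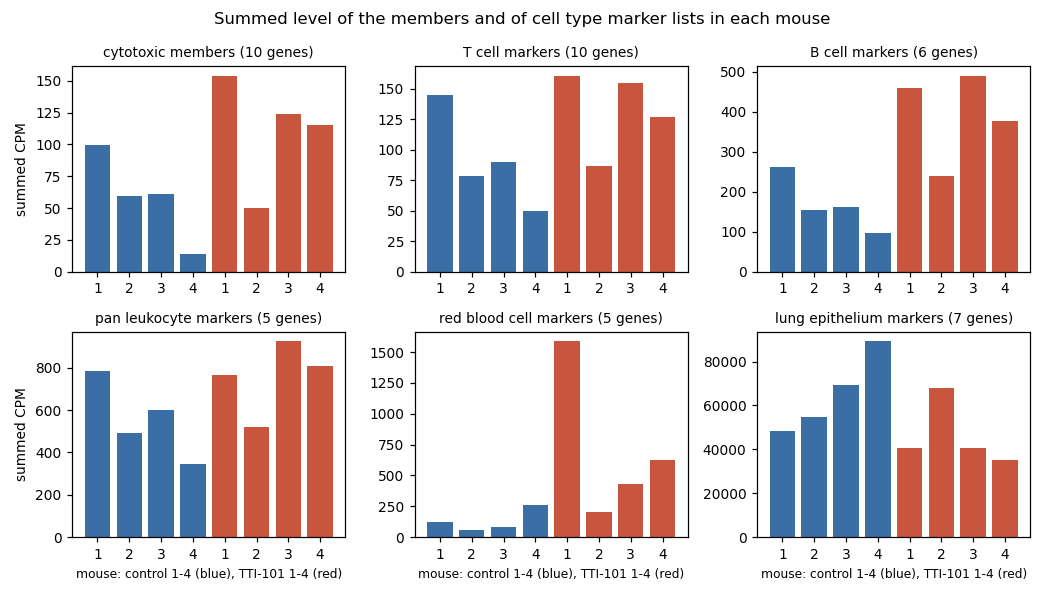
Summed CPM (vertical axes, linear, from 0) of the 10 members and of 5 marker lists in control mice 1 to 4 (blue bars) and TTI-101-treated mice 1 to 4 (red bars). Member, T cell, B cell and leukocyte sums are all lowest in control mouse 4, where the epithelial sum is highest at 89124 CPM.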

How the data were processed

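Whole-lung RNA of 4 control and 4 TTI-101-treated mice was sequenced, 1 library per mouse. The authors deposited unnormalized counts, whole numbers of reads for each Ensembl gene. The libraries were stranded and poly(A)-selected, and the submitters' processing notes name STAR, DESeq2 and mm10, while the counting tool and its strand setting are not given in the sources used here. All 10 members have the same coordinates in GENCODE M21. Totals were 16075855 to 26873509 counts per library.

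Counts were analysed with edgeR 4.0.16 in R 4.3.3. filterByExpr (minimum count 10) kept 17138 genes. After TMM scaling, groups were compared by robust quasi-likelihood F-tests with Benjamini-Hochberg adjustment over all tested genes. Log2 CPM used a prior count of 2. Single values were compared by two-sided exact permutation tests over 70 assignments (fewer with a library left out), and intervals are Clopper-Pearson, in Python 3.11.15 with SciPy 1.17.1. The code of the fit was checked on simulated counts with the same dispersion for every gene and changes placed only in well-counted genes. That check does not measure how well differences in the members would be found. Alternatives were DESeq2 1.42.0, limma-voom (limma 3.58.1), other scalings and filters, a replicate block, Xist as a covariate, 0.5 as the prior count and leaving out each library in turn. The 10 members are all named, and of each other list up to 3 genes of lowest p and defining markers. The members and lists were chosen with earlier results of these data known. A fit of the 6 shallower libraries and the tests between members, and leaving out each library for genes of the other lists, were added after seeing the data. Promoters came from RefSeq on GRCm38.p6.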

Additional observations from a re-analysis of the deposited data

Results flagged for a closer look

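Of 58 groups of 4 values examined, 5 held a value whose gap to the nearest other value was a larger share of the group's range than Dixon's critical value for 4 values, where chance flags about 1 in 20 groups, or 2.9 here. For Nkg7, control mouse 4 was at 1.48 on the log2 CPM scale against 3.43 to 3.76 in the other controls (gap share 0.856). Gzmb relative to Ptprc was -6.49 in control mouse 4 against -4.84 to -4.59 in the other controls (gap share 0.873). Gzmb relative to Cd3e was -1.21 in TTI-101-treated mouse 2 against -0.12 to 0.08 in the other treated mice (gap share 0.843). The total of control mouse 1 was 26873509 counts against 16446481 to 18220467 (gap share 0.830). The mitochondrial share of control mouse 4 was 5.56% against 2.44% to 2.85% in the other controls (gap share 0.867).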

How the results depend on the processing

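The direction of all 9 members' log2 fold changes was the same under every alternative that kept them, and none reached an adjusted p under 0.05. The number of members at an unadjusted p under 0.05 was 1 with limma-voom, both other scalings, the stricter filter (which kept 7 members) and Xist as a covariate, 4 with DESeq2's Wald test (2.63% of all genes higher at that p), 0 without a filter in edgeR (1849 genes, 2.85% higher), 3 in the 6 libraries other than the deepest of each group (4.74% higher), and 0 to 6 with single libraries left out, where 422 to 2498 genes passed. At an adjusted p under 0.05, DESeq2 called 4 genes, the fit with Xist 1, and fits without 1 library 0 to 1. Replicate numbers were not taken as pairs, as same-numbered deviations correlated at 0.07 to 0.39 and only 2 of 4 controls matched their own number best. That check cannot show that the samples were unpaired. With a replicate block, 2 members (Cd8a and Prf1) passed an unadjusted p of 0.05, where 3.98% of all genes were higher at that p.

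With single libraries left out, members whose groups did not overlap numbered 0 to 5 (1.85% to 7.04% of all tested genes), and members passing relative to Ptprc or Cd3e 0 to 2. Relative to Cd3e, differences then ranged from -0.27 to 0.22 for Gzma, -0.31 to 0.046 for Nkg7, -0.32 to 0.19 for Klrb1c and -0.24 to 0.18 for Eomes, and relative to Ptprc from -0.019 to 0.47 for Nkg7 and -0.034 to 0.56 for Klrb1c. The causes were not tested. With 7 to 1289 counts per library for the 9 tested members and 4 mice a group, the spread between mice rather than counting error limits these comparisons, except for Gzmk.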

Other observations

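Outside the members, the tested genes whose levels followed the mean z-score of the 9 tested members most closely over the 8 libraries were Trim34a (Pearson's r 0.996), Plscr4 (0.994), Gm14085 (0.994), Nat8f7 (0.993), Gimap6 (0.992), Tcf7 (0.991), Crlf3 (0.991), Popdc3 (0.990), Tspan18 (0.989) and Tlr1 (0.989). Gimap6 is a GTPase gene of lymphocytes and Tcf7 encodes TCF1, a factor of naive and memory T cells and of innate lymphoid cells. Gimap6 was at 74.2 CPM in control and 112 CPM in treated lungs, and Tcf7 at 32.4 and 53.1 CPM. These are the extremes of 17138 genes over 8 libraries and are given as a description.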
